A study of Mus musculus with 2 samples.

Results

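The miR-130 and miR-301 family was examined in the mammary region of E13.5 mouse embryos. It was taken as the rows of both arrays that belong to mouse miRNAs and are named mmu-miR-130a, mmu-miR-130b, mmu-miR-301a or mmu-miR-301b. All 4 members were found among 696 mouse miRNAs, and they were read by 10 of 1937 probes and 80 of 13920 miRNA spots. The members were fixed by their names and not by their signals, though earlier results of these data were known when they were chosen.

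The samples were dissected from untreated embryos of ICR mice, an outbred strain, at E13.5, when the epithelial bud of the mammary gland sinks into the mesenchyme below. The 3rd mammary gland was compared with the inter mammary gland region, the piece of flank that lies between that gland and the next, here called the flank. Each region gave 100 ng of total RNA, which was marked with the dye Cy3 and hybridized to 1 Agilent 1-colour miRNA array. How many embryos gave the RNA is not given in the sources used here. Each piece holds several tissues, so that fewer cells of a type and less RNA per cell cannot be told apart.

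A miRNA pairs with its target mRNAs mainly through its seed, the bases 2 to 8 from the 5′ end. miRNAs with the same seed can repress largely the same targets, whichever gene they come from. The miR-130 and miR-301 family is known as a regulator of Pparg, the main transcription factor of fat cell formation. miR-130a is also known for its action in endothelial cells, where it represses homeobox genes that hold back vessel growth.

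The mature sequences are shown because the seed is what makes these miRNAs a family. They were copied from RefSeq (assembly GRCm38.p6), which held a mature sequence for 3 of the 4 members, and bases 2 to 8 are in capitals.
miR-130a: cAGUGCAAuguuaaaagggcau
miR-130b: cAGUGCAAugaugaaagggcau
miR-301a: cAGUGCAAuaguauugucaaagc
The seed of the 3 is identical. miR-130a and miR-130b are the closest pair, with the same base at 20 of 22 positions, whereas miR-130a and miR-301a share 12 of 22 positions and miR-130b and miR-301a 11 of 22. The first 9 bases are common to the 3.

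The genes of miR-130a, miR-130b and miR-301a lie in separate places. Mir130a is on chromosome 2 with no host gene annotated around it, Mir301 (the gene of miR-301a) is on chromosome 11 inside Ska2, a gene of the spindle and kinetochore, and Mir130b is on chromosome 16 inside 2610318N02Rik. Mir301b is the neighbouring miRNA gene of Mir130b inside the same host.

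RefSeq held 7 mouse miRNAs with this seed in all. Of these, 4 are read by the array, and the only one of the 4 outside the members is mmu-miR-721, whose gene is on chromosome 5 inside Cux1. Its sequence is shown because it has the seed of the family but a different measured difference between the regions.
miR-721: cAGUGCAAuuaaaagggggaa
It also starts with the 9 bases shared by miR-130a, miR-130b and miR-301a. Changing miR-130a into miR-721 takes 5 single-base edits, against 2 for miR-130b and 10 for miR-301a. Whether the probes of one of these miRNAs also bind another was not tested.

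Both arrays had 38.1% of their miRNA spots well above background and 0 saturated miRNA spots. Of the miRNAs, 284 were detected on both arrays, where a miRNA counts as detected when it has a probe with over 50% of its spots well above background. Signals are given below as background-subtracted intensities before scaling, with the SD over the spots of a probe. For ratios, the signals of an array were divided by their 75th percentile over the probes that both arrays detected, 786 on the gland array and 719 on the flank array. A log2 ratio is the 3rd mammary gland over the inter mammary gland region, so that positive values are higher in the gland. There was 1 array per region, so the difference between the regions has no replicate check and no test was possible. The SD over spots is technical only. For a ratio it is the SD for single spots, unpaired by place, and so is wider than the error of a mean over spots. Signals of different probes cannot be read as amounts of RNA, and no order of levels among the members is given.

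The family differed little between the gland and the flank. All 4 members were detected in both regions, and 0 of 4 differed by 1.5-fold or more in either direction. Over all 284 miRNAs 2.11% lay 1.5-fold or more above the flank and 9.15% lay 1.5-fold or more below it. A count of 0 among 4 is near this background and is no result about the members. The log2 ratios of the members ran from -0.01 to 0.30 with a median of 0.06, beside a median of 0.05 over the 284 miRNAs. miR-721, with the same seed, was 4.35-fold lower in the gland.

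miR-130a was read by 2 probes. The first gave 5471 ± 300.0 (SD, 10 spots) in the 3rd mammary gland and 5045 ± 178 (SD, 9 spots) in the inter mammary gland region. The second gave 6559 ± 462 (SD, 9 spots) and 6031 ± 574 (SD, 10 spots), respectively. After scaling, the spots of the regions overlapped for both probes, and of the 18 spots usable on both arrays 9 were higher and 9 lower in the gland. The log2 ratio was -0.01 with an SD over spots of 0.14, and 115 of the 284 miRNAs had a lower ratio.

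miR-130b was read by 2 probes as well. The signal of the first was 724 ± 56.8 (SD, 10 spots) in the 3rd mammary gland and 611 ± 44.3 (SD, 10 spots) in the inter mammary gland region. The signal of the second was 1054 ± 132 (SD, 10 spots) in the gland and 933 ± 86.4 (SD, 10 spots) in the flank. The scaled spots overlapped for both probes, although 17 of 20 were brighter in the gland than at the same place on the other array. With this scaling 164 of 284 miRNAs had a positive log2 ratio, and the share of brighter spots over all miRNAs was not computed. The log2 ratio of miR-130b was 0.07 with an SD over spots of 0.21, and 158 miRNAs had a lower ratio.

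miR-301a, the member processed from the Ska2 locus, gave 2426 ± 115 (SD, 10 spots) with its first probe in the 3rd mammary gland and 2201 ± 112 (SD, 10 spots) in the inter mammary gland region. With its second probe it gave 685 ± 32.3 (SD, 10 spots) and 547 ± 24.2 (SD, 10 spots). The probes differed from each other in their ratios. The log2 ratio was 0.01 with an SD over spots of 0.10 for the first probe and 0.19 with an SD of 0.09 for the second. For the miRNA as a whole the log2 ratio was 0.05 (SD over spots 0.12), with 144 miRNAs below it, so that miR-301a lay almost at the middle of the array. Of its 20 spots, 17 were brighter in the gland at the same place, a count with no share over all miRNAs. The scaled spots of both probes overlapped. With no scaling, and with 3 of the other 4 scalings checked in this way, the spots of the second probe no longer overlapped.

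miR-301b, the neighbour of miR-130b, had the highest ratio of the 4. It was read by 4 probes of 5 spots. Probe 4 gave 363 ± 20.2 (SD, 5 spots) in the 3rd mammary gland and 279 ± 11.4 (SD, 5 spots) in the inter mammary gland region. Probe 3 gave 238 ± 5.44 (SD, 5 spots) and 172 ± 11.7 (SD, 5 spots). For these 2 probes all gland spots were brighter than all flank spots after scaling.

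The other probes of miR-301b carried little signal. Probe 2 gave 33.7 ± 3.39 (SD, 5 spots) in the gland, with 4 of 5 spots well above background, and 19.7 ± 2.37 (SD, 5 spots) in the flank, with 0 of 5, and here too the scaled spots did not overlap. Probe 1 gave 7.67 ± 6.03 (SD, 5 spots) in the gland and 4.50 ± 6.02 (SD, 5 spots) in the flank. The highest negative control spot was 17.3 on the gland array and 19.2 on the flank array, so that the mean of probe 1 lay within the range of the negative controls.

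The log2 ratio of miR-301b was 0.30 with an SD over spots of 0.15, a 1.23-fold difference, and 242 of 284 miRNAs had a lower ratio. With only the 2 probes detected on both arrays it was 0.28. miR-301b was also the only member whose detected probes had no overlap between the scaled spots of the arrays. The same held for 13.0% of the 284 miRNAs in this direction and for 12.7% in the other, so that 1 of 4 is not a result about the family. When the scaling used only probes with every spot well above background, the spots of 1 of the 2 probes no longer separated.

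**Figure D1:**
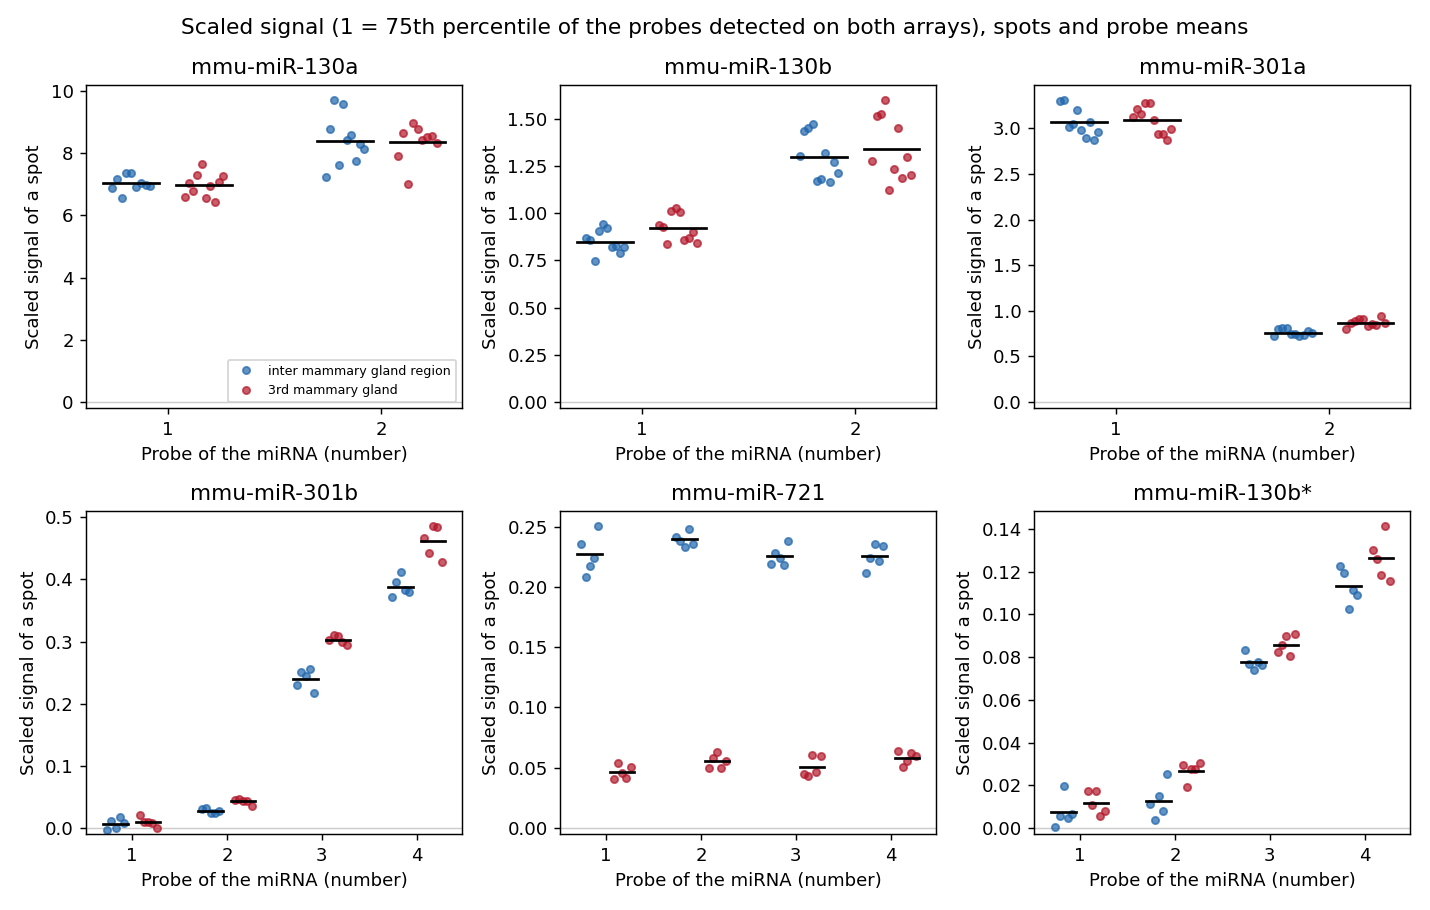
Scaled signal of each spot (y axis, 1 is the 75th percentile over probes that both arrays detected) by probe (x axis) for the 4 members, miR-721 and miR-130b*, with blue points for the inter mammary gland region, red points for the 3rd mammary gland and black bars for probe means. Spots of the regions overlap for miR-130a, miR-130b and miR-301a, lie apart for probes 2, 3 and 4 of miR-301b, and lie far apart for all 4 probes of miR-721.

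The members did not differ much from one another in this comparison. The log2 ratio of miR-130a minus that of miR-301b was -0.32, with an SD over spots of 0.205 for the difference. As for a ratio, this SD is for single spots and is wider than the error of a difference between means. For miR-130b, whose gene lies beside that of miR-301b, the difference from miR-301b was -0.23 and the SD over spots 0.25. The widest difference among the other 3 members was that of miR-130a minus miR-130b, at -0.08 (SD over spots 0.25). The middle 142 of the 284 miRNAs had log2 ratios from -0.14 to 0.22, and miR-130a, miR-130b and miR-301a lay inside this range and miR-301b above it.

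The passenger strand of miR-130b, listed as miR-130b*, was the only passenger strand of a member on the array. Its sequence is shown with bases 2 to 8 in capitals, because it is cut from the precursor of miR-130b but carries another seed.
miR-130b*: aCUCUUUCccuguugcacuacu
Its brightest probe gave 99.4 ± 8.12 (SD, 5 spots) in the 3rd mammary gland and 81.3 ± 5.75 (SD, 5 spots) in the flank, and the next gave 67.5 ± 3.61 (SD, 5 spots) and 55.8 ± 2.53 (SD, 5 spots). For 2 of its 4 probes no spot was well above background on either array. The log2 ratio was 0.25 with an SD over spots of 0.24, next to 0.07 for miR-130b itself, and both were under 1.5-fold. With only the 2 probes of miR-130b* detected on both arrays its log2 ratio was 0.15, and after normexp it was 0.07.

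**Figure D2:**
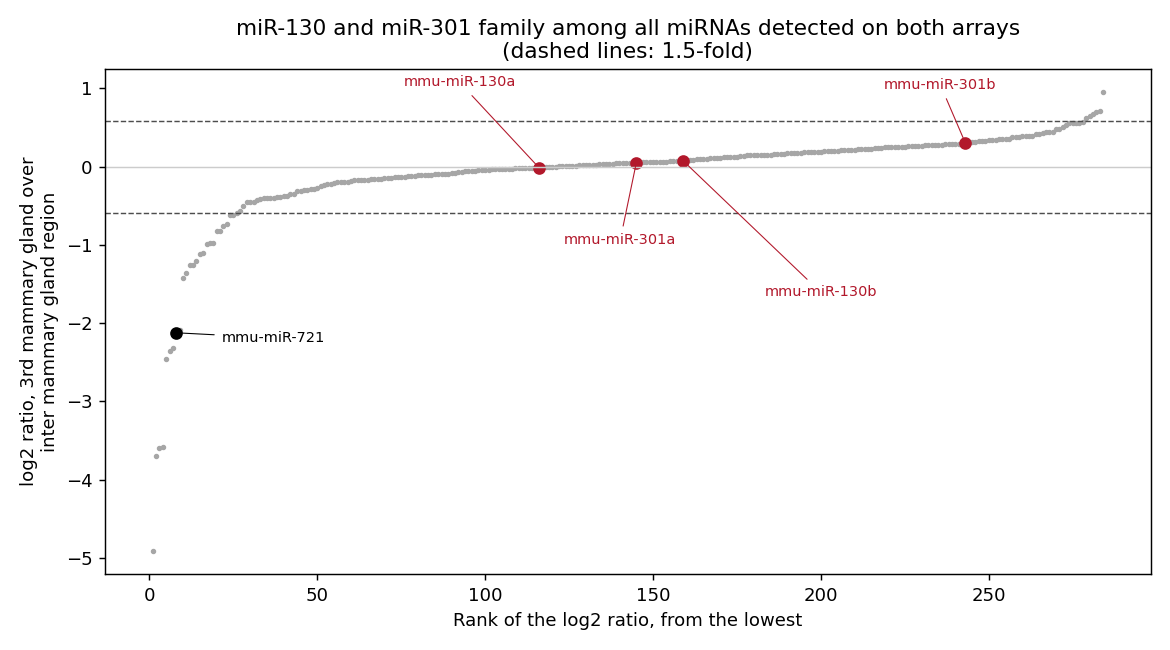
log2 ratio of the 284 miRNAs detected on both arrays (y axis, 3rd mammary gland divided by inter mammary gland region) against its rank from the lowest (x axis), with the family in red, miR-721 in black and dashed lines at 1.5-fold. The 4 members lie between the dashed lines at ranks 116 to 243, and miR-721 is at rank 8.

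miR-721 differed more between the regions than any of the 4 members. Its 4 probes gave 36.4 ± 4.48, 43.4 ± 4.54, 40.0 ± 6.74 and 45.8 ± 4.24 in the 3rd mammary gland (SD, 5 spots each). In the inter mammary gland region they gave 163 ± 11.9, 172 ± 4.18, 162 ± 5.69 and 162 ± 6.94 (SD, 5 spots each). All 20 spots were well above background on both arrays, and all 20 were lower in the gland than at the same place on the other array.

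The log2 ratio of miR-721 was -2.12 with an SD over spots of 0.19, and the probes ranged from 3.87-fold to 4.90-fold lower. Its ratio was 2.11 below that of miR-130a on the log2 scale (SD over spots 0.24), and 7 of the 284 miRNAs had a lower ratio. After normexp background correction, whose offset draws dim signals together, the log2 ratio of miR-721 was -1.07.

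The markers of striated muscle were also lower in the gland, but by less than miR-721. The miRNAs ranked just below and just above miR-721 were in no marker list, miR-1897-5p at -2.31 and miR-188-5p at -2.08. All 4 of 4 muscle miRNAs were detected in both regions and were more than 1.5-fold lower in the 3rd mammary gland, with log2 ratios from -1.43 to -1.12. Their summed scaled signal was 2.09 in the gland and 5.02 in the flank. Their part in the difference of miR-721 was not tested. The 7 epithelial markers were detected in both regions and were all under 1.5-fold, as were 252 of the 284 miRNAs. Their log2 ratios ran from -0.31 to 0.51 with a median of 0.34. The 5 miRNAs of the miR-200 family among them were between 0.21 and 0.51, while miR-203 was at -0.31 and miR-205 at -0.02. The summed scaled signals were 13.9 and 13.3, of which miR-205 made up 6.78 and 6.88. The 3 mesenchymal markers had log2 ratios from 0.22 to 0.32 (summed 35.1 and 28.8), and 5 of the 6 blood markers were detected in both regions, from -0.39 to 0.44 with a median of -0.06. Over the 6 blood markers the summed scaled signals were 7.93 and 6.06, of which miR-451 made up 7.23 and 5.32. Of the endothelial markers both were detected, with summed scaled signals of 2.75 and 2.64. The part of these tissues in the ratios of the family was not tested.

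miRNAs whose seed overlaps that of the family were taken as a further group. The seed of miR-19a and miR-19b, members of the miR-17-92 clusters, and that of miR-148a, miR-148b and miR-152, which act on DNA methyltransferases, each hold 6 of the 7 letters of the family seed. They are shown with those shared letters in capitals.
miR-19a: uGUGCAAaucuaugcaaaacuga
miR-19b: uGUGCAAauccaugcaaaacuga
miR-148a: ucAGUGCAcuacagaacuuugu
miR-148b: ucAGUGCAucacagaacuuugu
miR-152: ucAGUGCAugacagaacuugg
All 5 were detected in both regions and 0 were past 1.5-fold in either direction. Over the 284 miRNAs 2.11% were past it upward and 9.15% downward, so a count of 0 among 5 is no result about this group. The lowest was miR-148a, with a signal of 706 in the gland and 850 in the flank and a log2 ratio of -0.40 (SD over spots 0.13). The highest was miR-148b, at 153 and 123 and a log2 ratio of 0.18 (SD over spots 0.17). miR-19a had a log2 ratio of -0.12, miR-19b of 0.04 and miR-152 of 0.15. The median of this group was 0.04, against 0.06 for the family.

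The miRNAs listed with the family for Pparg, hypoxia and vessels were all within 1.5-fold, as were 252 of the 284 miRNAs. miR-27a and miR-27b, which also repress Pparg, had log2 ratios of 0.35 and -0.02, with SDs over spots of 0.12 and 0.13. The signals were 788 in the gland and 564 in the flank for miR-27a, and 1195 and 1105 for miR-27b. Among miRNAs of hypoxia and vessels, miR-210, which is induced by hypoxia, gave -0.05 (SD over spots 0.12). miR-126-3p and miR-126-5p, the strands of an endothelial precursor, gave 0.05 (SD over spots 0.15) and 0.21 (SD over spots 0.16).

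**Figure D3:**
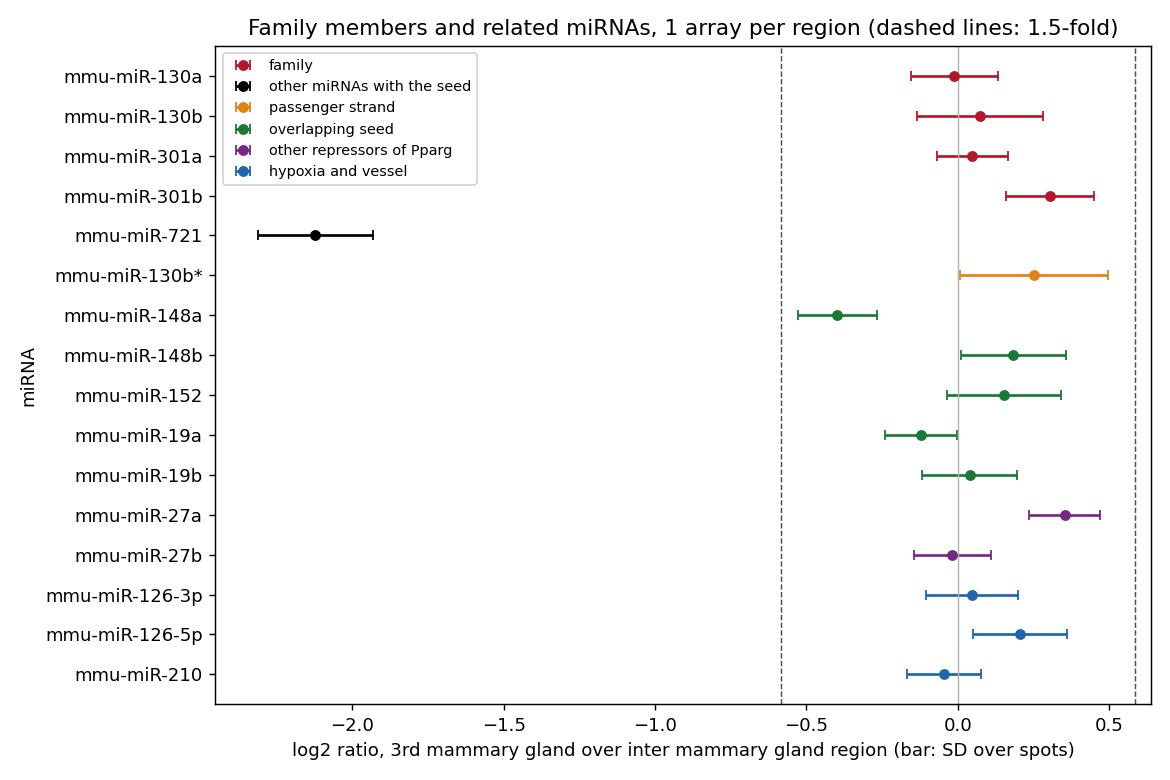
log2 ratio of each miRNA (x axis, 3rd mammary gland divided by inter mammary gland region) for the family, miR-721, miR-130b* and the related groups (y axis), with points for the ratio of 1 array per region, bars for the SD over spots and dashed lines at 1.5-fold. miR-721 at -2.12 is the only point beyond the dashed lines.

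By likeness of the log2 ratio over these 2 arrays, the nearest miRNAs outside the family were miR-411, miR-20b and miR-299* for miR-130a, miR-17*, miR-199b* and miR-22 for miR-130b, miR-665, miR-497 and miR-542-5p for miR-301a, and miR-340-3p, miR-467f and miR-30d for miR-301b. The difference from the member was at most 0.01 on the log2 scale in each case. miR-130a, miR-130b and miR-301a lie in the narrow middle range given above, which holds 142 of 284 miRNAs, so such nearness is common there. miR-301b and its neighbours lie above that range.

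The sign of the smallest ratios depended on the scaling. The median over all miRNAs detected on both arrays, 0.05 in the main setting, shifted by up to 0.16 on the log2 scale when the arrays were scaled by all probes, and by 0.13 with no scaling. miR-130a, at -0.01 in the main setting, was then at 0.15 and 0.12. Relative to the median of all miRNAs the family median was 0.01 higher in the main setting and with both of these, and 0.01 to 0.11 higher over the 13 settings. Of the whole array, 15 miRNAs were higher and 23 lower with no scaling, against 6 and 26 in the main setting. 19 were higher and 22 lower with all probes, 15 and 23 with the median of the probes, 14 and 22 after quantile normalization, and 14 and 24 with the total signals. No member passed 1.5-fold under any setting tried.

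**Figure D4:**
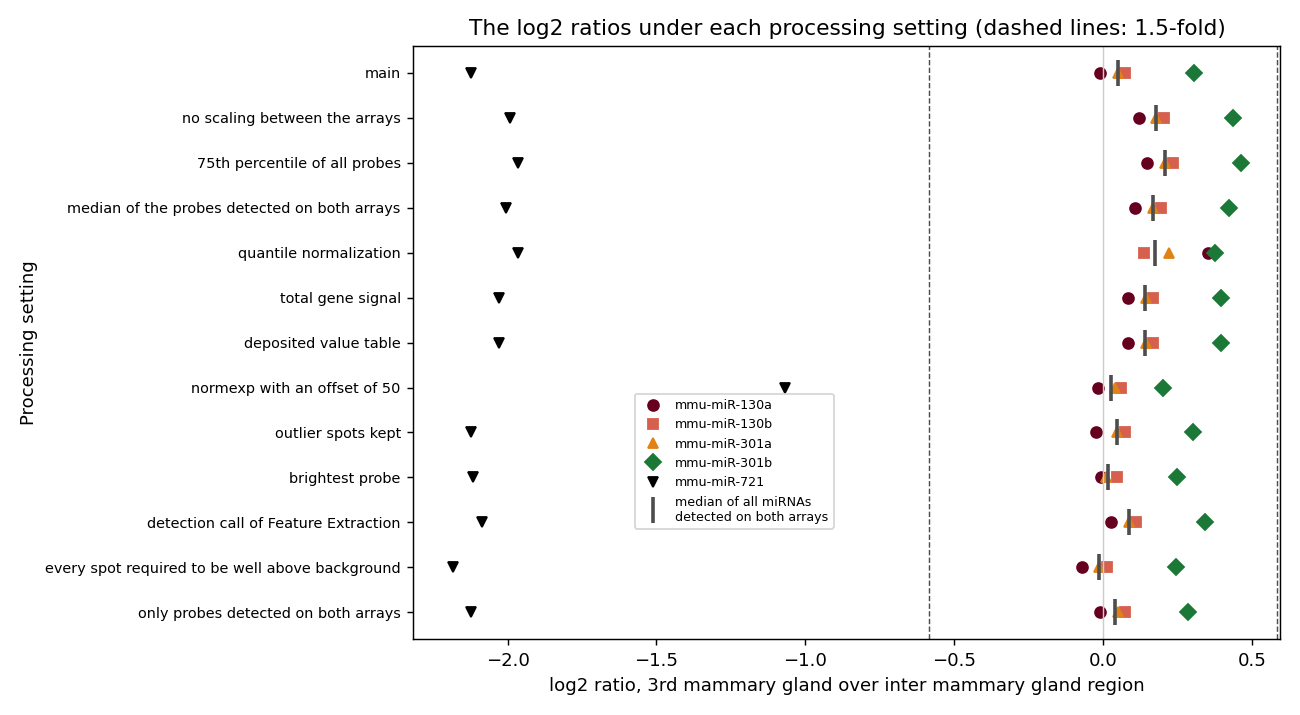
log2 ratio (x axis, 3rd mammary gland divided by inter mammary gland region) of the 4 members and miR-721 under the main setting and 12 alternatives (y axis), with upright bars for the median of all miRNAs detected on both arrays and dashed lines at 1.5-fold. The members stay between -0.07 and 0.46, and miR-721 between -2.18 and -1.07.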

How the data were processed

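The arrays were scanned and quantified by the authors with Feature Extraction, version 10.7.3.1 per the file headers. The deposited intensity of each spot is background-subtracted, linear and not normalized between arrays. A further deposited table gives total intensities per miRNA from the same software, with 0.1 for a miRNA not called detected. GeneSpring GX is named for normalization in the methods, but its settings are not given in the sources used here.

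Control and outlier spots were left out, spots averaged per probe, arrays scaled as described above, and probes averaged per miRNA. The SD over spots of a ratio combines the relative SDs of both arrays for single spots, with no division for the number of spots. The threshold was 1.5-fold, with no test, since each region has 1 array. The number of arrays limits the precision. The steps were tested on simulated spots, with changes of 2-fold or more in miRNAs with a flank signal over 100. Smaller changes, such as those of the members, were not simulated. The members and lists were chosen with earlier results of these data known. Named miRNAs were the members, those with the same or an overlapping seed, passenger strands, Pparg, hypoxia and vessel miRNAs, and the 3 nearest ratios of each member. mmu-miR-454 and other passenger strands of the list were not analysed here. Names were matched to RefSeq by the arm, and no coordinates are given because the array's grid names another assembly. Alternatives covered scaling, signal column, background, outliers, probes, detection, dim miRNAs (under 100) and threshold. R 4.3.3 with limma 3.58.1 (normexp on the median pixel signal less the local background, offset 50) and Python 3.11.15 with numpy 2.4.6 and pandas 2.3.3 were used.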

Additional observations from a re-analysis of the deposited data

How the results depend on the processing

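No paired analysis was possible because the regions have 1 array each. Of 48 values of the 4 members under 12 alternatives, 41 moved by less than 1 SD over spots. That count depends on the SD of each member and is no measure of stability. The total signals and the deposited table gave identical values for the members, so that 4 of the 48 are counted again. Those that moved by more were miR-130a at 0.15 when scaled by the 75th percentile of all probes ("all probes" hereafter) and 0.35 after quantile normalization, miR-301b at 0.46 with all probes, and miR-301a. miR-301a was at 0.21 with all probes, 0.17 with the median of the probes, 0.18 with no scaling and 0.22 after quantile normalization. The family median, 0.06, was 0.22 with all probes and 0.29 after quantile normalization. Of these scalings, all but quantile normalization shift every miRNA by the same amount, which was upward in these data. Quantile normalization acts by rank. The use of only the probes detected on both arrays was chosen after the data were seen and left the family median at 0.06. The count of miRNAs at least 1.5-fold higher over the array, 6 of 284, was 19 with all probes, and 15 with no scaling and with the median of the probes. It was 14 after quantile normalization, with the total signals and with the deposited table, 2 after normexp and 0 at 2-fold. With the software's call of detection it was 18, out of the 323 miRNAs then detected on both arrays. The count lower, 26, was 16 at 2-fold. The cause was not tested for the call of detection, normexp and the total signals. Signal over background limits miR-301b and miR-130b*, each with 2 of 4 probes not detected on both arrays. The gland signal of miR-721, a mean of 41.4, was low as well. Its log2 ratio of -2.12 was -1.07 after normexp.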

Other observations

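The software's own total signals, which are not plain sums of the probe signals given above, listed all 4 members above its stand-in of 0.1 in both regions. They were 7967 in the gland and 7174 in the flank for miR-130a, 1177 and 999.6 for miR-130b, 2060 and 1780 for miR-301a, and 210 and 153 for miR-301b. The quotients of these totals, with no scaling between the arrays added here, were 1.11 for miR-130a, 1.18 for miR-130b, 1.16 for miR-301a and 1.38 for miR-301b. miR-721 had totals of 54.8 and 213, a quotient of 0.257.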
